A study of Homo sapiens with 8 samples.

Results

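The genes described here form the feedback circuit around A20, the ubiquitin-editing protein encoded by TNFAIP3, together with a few genes that cells switch on in answer to tumour necrosis factor (TNF). They were taken by name: TNFAIP3, TNIP1, TNIP2, TNFAIP2, BIRC2, BIRC3, TRAF1, CYLD, ZC3H12A and ICAM1, 10 genes in all. Of these, 9 had at least 1 probe set that names the gene alone, out of 18239 such genes on the array. They carry 32 probe sets, of 45253 that name a single gene, and 30 of the 32 passed the filter on low values. All 9 genes passed it and were among the 13002 genes tested. BIRC3 has no probe set under its name in the annotation used and was not analysed here.

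When TNF binds its receptor, adaptors and ubiquitin ligases build ubiquitin chains that recruit the kinases which release the transcription factor NF-kB. NF-kB then switches on inflammatory genes, and among them genes for proteins that take those chains apart or destroy inflammatory messages, so that the signal limits itself. A20 edits and removes ubiquitin chains, TNIP1 (ABIN-1) and TNIP2 (ABIN-2) bind A20 and ubiquitin, CYLD cleaves chains, BIRC2 (cIAP1) builds them, TRAF1 is an adaptor without a RING domain, ZC3H12A (Regnase-1) is an RNase that degrades cytokine messages, and ICAM1 is the adhesion molecule that leukocyte integrins bind.

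The study measured RNA of 2 brain-metastatic human breast cancer lines on 8 single-colour Affymetrix arrays. The groups were 231BrM with doxycycline, 231BrM control, SKBrM3 with doxycycline and SKBrM3 control, with 2 arrays in each. Both lines, controls included, carry a hairpin against MET (shMet) that doxycycline switches on, and all cells grew in DMEM with 10% FBS. Per the labels, the treated cells had 100 ng of doxycycline, with no volume stated, and the experiment ran for 48 h. No group had doxycycline without the hairpin, so what the drug does and what the hairpin does cannot be told apart. The labels do not state whether each line is a clone or a pool, nor whether replicates are separate cultures. The p-values therefore cover only the array-to-array spread, which could be technical.

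The hairpin's target was low in both treated groups: MET changed by -3.76 in 231BrM (limma adjusted p = 2.83e-05) and by -3.50 in the arrays labelled SKBrM3 (limma adjusted p = 1.30e-05), on the log2 scale used throughout. On the control arrays labelled SKBrM3, none of the 6 tested markers of an ERBB2-amplified luminal line was higher than in 231BrM controls at a limma adjusted p under 0.05. ERBB2 averaged 6.83 with doxycycline and 6.81 without in 231BrM, against 7.01 and 6.71 on the arrays labelled SKBrM3, and CDH1 and ESRP1 lay under the filter level of 4.41. GRB7 was at 5.16 in SKBrM3 controls and 5.10 in 231BrM controls, and STARD3 at 8.88 and 8.81. KRT8, KRT18 and KRT19 lay above that level in SKBrM3 controls too, at 8.43, 10.6 and 6.82, but were lower than in 231BrM controls. Of the 6 mesenchymal markers, 5 lay well above that level in both lines, such as VIM at 12.9 in 231BrM controls and 12.8 in SKBrM3 controls, while SPARC was at 6.95 in 231BrM controls and under the filter level, at 4.21, in SKBrM3 controls. ERBB2 near its 231BrM level and ESRP1 under the filter level go against the name, so this line is called by its label only. Summed over the 8 luminal markers on the list, the values ran from 57.8 to 58.6 with doxycycline and from 58.4 to 58.5 without in 231BrM. In the line labelled SKBrM3 these sums ran from 53.6 to 54.2 with doxycycline and were 54.5 on both control arrays. The sums of the 6 mesenchymal markers ran from 62.8 to 63.4 over the 231BrM arrays and from 59.1 to 59.5 over those labelled SKBrM3. Of the markers of other cell types, PTPRC and CD14 of leukocytes, CDH5 of endothelium, COL3A1 and DCN of fibroblasts and AQP4 of astrocytes lay under the filter level. Above it were CD3E of leukocytes, PECAM1 and VWF of endothelium, COL1A1 of fibroblasts and GFAP and ALDH1L1 of astrocytes, with group means from 4.44 (COL1A1) to 5.66 (PECAM1). Their part in the results was not tested. The first 231BrM doxycycline array stands apart: the 3' minus 5' signal of its actin control was 1.24, against 0.46 to 0.59 on the other 7 arrays, and 68 genes differed by over 2-fold between it and its replicate, against 0 or 1 in the other groups. Where leaving it out moves a member's value in 231BrM by over 1.5 times or turns its sign, that value is given too.

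Promoters of the members are shown because NF-kB is known to act on its target genes through kappa B sites. All 10 members matched the RefSeq promoter table (GRCh38.p14), with 16 start sites among them. The 250 bases before each start were searched on both strands for the kappa B consensus, GGGRNNYYCC (R is A or G, Y is C or T, N is any base). It stood before 4 of the 16 starts (25.0%, in TNFAIP3, TNIP1, BIRC3 and CYLD), against 3498 of 35116 promoters in the table (9.96%). The match that recurred among the members, GGGACTTTCC, is 1 form of that consensus and was chosen for this after the matches were seen. It stood before 3 of the 16 starts (18.8%), against 63 promoters in the table (0.179%). A match describes letters and is not evidence of binding.

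The TNFAIP3 promoter (chr6:137867009-137867258, plus strand) holds 2 consensus matches, both read on the minus strand, of which that at -67 to -58 from the start is GGGACTTTCC and that at -55 to -46 reads GGGGATTTCC. The second TNIP1 start (chr5:151081035-151081284, minus strand) has GGGACTTTCC at -42 to -33. The second CYLD start (chr16:50741836-50742085, plus strand) has it at -189 to -180, on the minus strand. The first BIRC2 start (chr11:102346964-102347213, plus strand) and the ICAM1 start (chr19:10270870-10271119, plus strand) are set beside them because BIRC2 had the smallest p of the members in SKBrM3 and ICAM1 in 231BrM. The consensus does not occur in their 250 bases, which says only that these letters are not in this window. A kappa B site with other letters, such as one without GGG, would not be found. The ICAM1 window holds TGGAAATTCC, which departs from the consensus only in its first base and is left unmarked. Such near matches were not counted in any window. All are printed 5′ to 3′ on the strand of the gene, ending at the base before the start, with the matches in capitals.
TNFAIP3: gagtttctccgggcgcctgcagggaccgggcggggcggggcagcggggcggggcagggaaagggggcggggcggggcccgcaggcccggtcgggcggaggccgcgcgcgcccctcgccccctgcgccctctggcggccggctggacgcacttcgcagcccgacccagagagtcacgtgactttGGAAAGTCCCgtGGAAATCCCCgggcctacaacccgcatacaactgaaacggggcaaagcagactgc
TNIP1, second start: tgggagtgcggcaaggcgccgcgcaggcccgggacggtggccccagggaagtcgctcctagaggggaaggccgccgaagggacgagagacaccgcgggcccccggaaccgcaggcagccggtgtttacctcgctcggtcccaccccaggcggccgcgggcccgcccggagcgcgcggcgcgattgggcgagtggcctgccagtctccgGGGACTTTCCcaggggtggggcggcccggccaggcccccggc
CYLD, second start: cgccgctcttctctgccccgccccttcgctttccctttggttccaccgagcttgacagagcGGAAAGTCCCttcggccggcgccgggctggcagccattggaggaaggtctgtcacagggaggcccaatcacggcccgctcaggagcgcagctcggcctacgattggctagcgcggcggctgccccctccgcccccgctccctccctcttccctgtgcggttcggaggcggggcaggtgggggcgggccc
BIRC2, first start: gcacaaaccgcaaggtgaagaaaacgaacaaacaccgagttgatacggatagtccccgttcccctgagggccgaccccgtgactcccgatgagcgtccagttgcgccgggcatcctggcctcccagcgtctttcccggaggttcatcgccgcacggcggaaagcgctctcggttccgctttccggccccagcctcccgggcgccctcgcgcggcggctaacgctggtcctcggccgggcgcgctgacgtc
ICAM1: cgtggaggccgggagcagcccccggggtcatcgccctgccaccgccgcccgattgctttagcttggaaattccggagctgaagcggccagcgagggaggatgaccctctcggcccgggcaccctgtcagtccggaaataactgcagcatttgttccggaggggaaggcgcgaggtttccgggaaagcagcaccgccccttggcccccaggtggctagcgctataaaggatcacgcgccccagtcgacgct

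With doxycycline in 231BrM no member passed the test, and ICAM1 had the change farthest from 0, -0.84. In the arrays labelled SKBrM3, TNFAIP3 fell by 0.61, BIRC2 fell by 0.61 and ZC3H12A fell by 0.54 on the log2 scale, and no member was called higher. Averaged over both lines, 6 of the 9 measured members were lower: TNFAIP3, TNIP1, BIRC2, TRAF1, ZC3H12A and ICAM1. TNIP2, CYLD and TNFAIP2 passed the test for doxycycline in neither line nor in the average. Fewer cells with a transcript and less of it per cell cannot be told apart in such bulk RNA. The plot of levels by group shows every array.

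**Figure D1:**
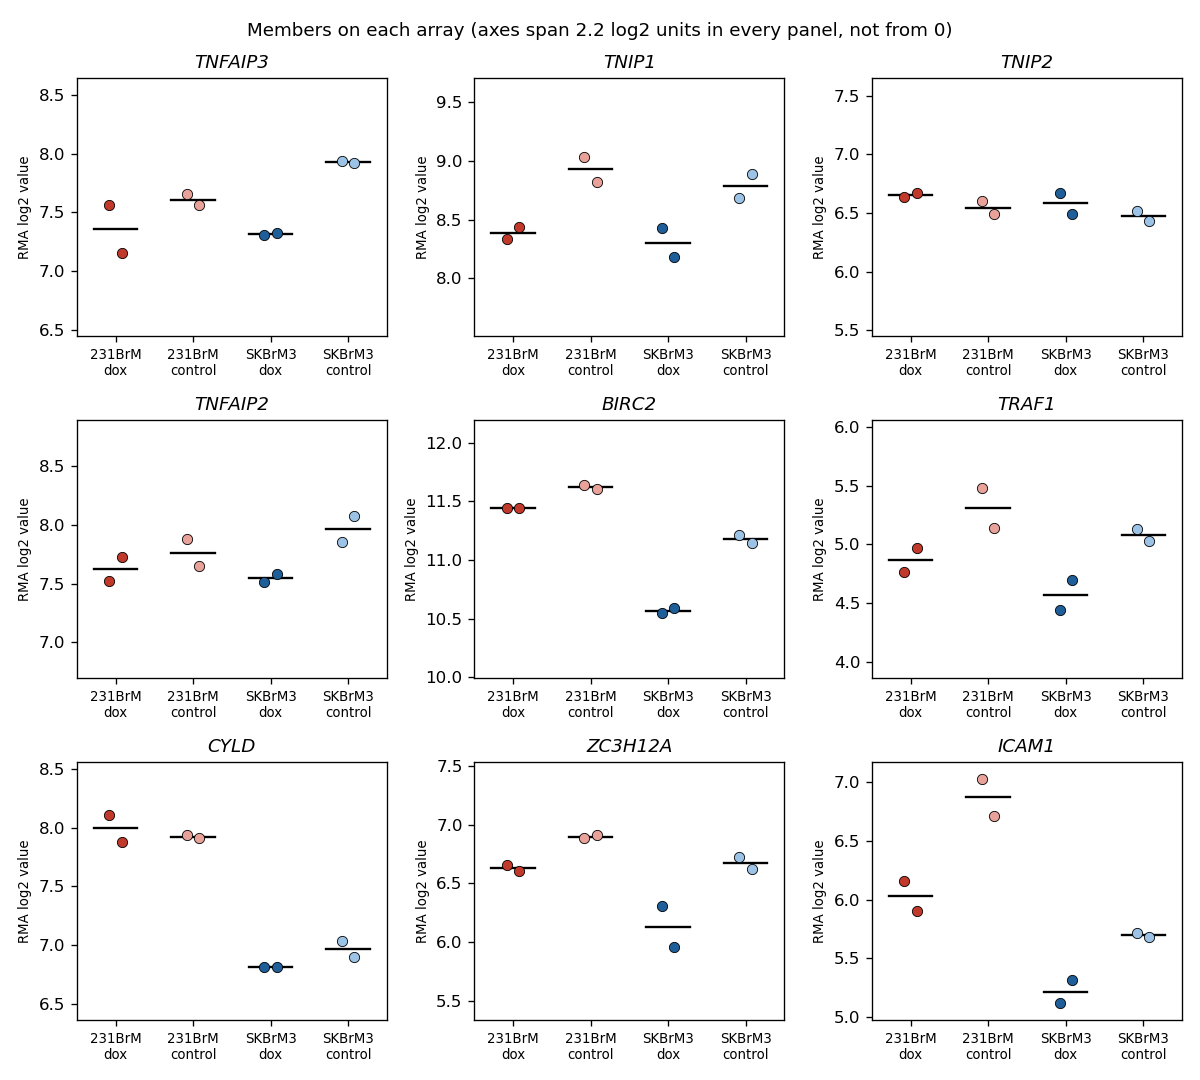
RMA log2 level (vertical axis) of the 9 measured members on each of the 8 arrays, by group (doxycycline left of control in each line); points are arrays and bars are means of 2. ICAM1, TRAF1, TNIP1, BIRC2 and ZC3H12A lie lower without overlap in both doxycycline groups, while TNIP2 lies level or slightly higher.

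TNFAIP3 itself measured 7.57 and 7.15 with doxycycline in 231BrM, against 7.66 and 7.56 in its controls. On the arrays labelled SKBrM3 it measured 7.31 and 7.33 with doxycycline, against 7.94 and 7.92 without. In the line labelled SKBrM3 the treated and control arrays stand well apart, with almost no spread within a group, and in 231BrM the groups overlap, the first treated array reaching the lower control. TNFAIP3 fell by 0.61 in SKBrM3, a 1.53-fold decrease (standard error 0.124, limma adjusted p = 0.0360). In 231BrM its change was -0.25 (standard error 0.124, limma adjusted p = 0.527), and it was -0.46 without the first doxycycline array and -0.04 without the second. The call in SKBrM3 was lost in 6 of the 8 fits that left out 1 array, namely any array but the 2 of 231BrM doxycycline, at adjusted p from 0.0791 to 0.220, although the change itself stayed between -0.62 and -0.60. The second TNFAIP3 probe set gave -0.21 in 231BrM and -0.45 in SKBrM3.

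TNIP1, which tethers A20 to ubiquitin chains, had 8.34 and 8.43 in treated 231BrM cells, against 9.04 and 8.82 in their controls. It had 8.43 and 8.18 in treated cells labelled SKBrM3, against 8.69 and 8.89. The groups do not overlap in either line. In 231BrM the change was -0.55 (standard error 0.119, limma adjusted p = 0.201), and from -0.65 to -0.44 over the fits that left out 1 array. In SKBrM3 the change was -0.49 (limma adjusted p = 0.0671), so TNIP1 passed in neither line alone. Averaged over both lines it fell by 0.52 (limma adjusted p = 0.0156).

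TNIP1 also shows where the choice of probe set matters. Its 8 probe sets all gave lower values with doxycycline, from -1.08 to -0.52 in 231BrM and from -0.64 to -0.35 in SKBrM3. In 231BrM, 5 of the 8 read over 0.7 lower on the first doxycycline array, the one with raised 3' signal, than on its replicate, and without that array the 8 changes ran only from -0.60 to -0.41. Whether the quality of the RNA on that array has a part in the TNIP1 values was not tested.

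TNIP2, the other A20-binding member, had 6.64 and 6.67 in treated 231BrM cells and 6.60 and 6.49 in controls, and 6.67 and 6.49 in treated cells labelled SKBrM3 against 6.51 and 6.43. It was the only member whose change was positive in both lines, 0.11 in each. Neither passed, with 95% intervals from -0.10 to 0.31 and from -0.09 to 0.31, so the arrays allow a small change either way. The treated arrays lay above the controls without overlap in 231BrM, as 25.8% of all genes did, and overlapped them in SKBrM3.

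CYLD, the deubiquitinase that is mutated in familial cylindromatosis, did not pass the test for doxycycline. It measured 8.10 and 7.88 in treated 231BrM cells, against 7.94 and 7.91 in controls, and 6.81 and 6.82 in treated cells labelled SKBrM3, against 7.03 and 6.89. The changes were 0.07 (limma adjusted p = 0.797) and -0.15 (limma adjusted p = 0.424), and the sign in 231BrM turned to -0.03 when all 4 probe sets were averaged and to -0.04 without the first doxycycline array. Treated and control arrays overlapped in 231BrM and did not in SKBrM3. Its level differed between the lines instead, being 1.95-fold higher in 231BrM controls than in SKBrM3 controls, as given below.

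BIRC2, a ubiquitin ligase of the TNF receptor complex, measured 11.44 and 11.44 in treated 231BrM cells, against 11.64 and 11.60 in controls, and 10.55 and 10.59 in treated cells labelled SKBrM3, against 11.22 and 11.14. In both lines the treated arrays lie below the controls, with a wider gap in SKBrM3. BIRC2 fell by 0.61 in SKBrM3 (1.53-fold, limma adjusted p = 0.00444) and ranked 65 of 13002 genes by p there. In 231BrM the change was -0.18 (standard error 0.0739, limma adjusted p = 0.493).

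All 5 BIRC2 probe sets were lower in SKBrM3, by changes from -1.01 to -0.61, and in a fit of every probe set on its own all 5 passed (limma adjusted p from 0.00297 to 0.0256), where 1.16% of all probe sets were lower. In 231BrM the 5 ran from -0.40 to -0.18. The effect in 231BrM minus that in SKBrM3 was 0.44 (95% interval 0.20 to 0.67), with an unadjusted limma p of 0.00270 and an adjusted p of 0.249, so a difference between the lines was not shown. The SKBrM3 call was lost without the first SKBrM3 control array (adjusted p = 0.0617) and without the first SKBrM3 doxycycline array (adjusted p = 0.0751).

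TRAF1, an adaptor that binds TRAF2 and the cIAPs, lay close to the filter level. It measured 4.77 and 4.97 in treated 231BrM cells, against 5.48 and 5.14 in controls, and 4.44 and 4.70 in treated cells labelled SKBrM3, against 5.13 and 5.03. The treated arrays were lower in both lines without overlap. Its changes of -0.44 (limma adjusted p = 0.396) and -0.51 (limma adjusted p = 0.0867) did not pass in either line, but the average of -0.47 did (limma adjusted p = 0.0420). In 231BrM the change was -0.34 without the first doxycycline array, and it ran from -0.61 to -0.27 over the fits that left out 1 array. Its 3 probe sets ran from -0.44 to 0.01 in 231BrM and from -0.51 to -0.23 in SKBrM3, and such low values can understate a change.

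ZC3H12A, the RNase, had 6.65 and 6.60 in treated 231BrM cells, against 6.88 and 6.91 in controls. It had 6.30 and 5.96 in treated cells labelled SKBrM3, against 6.72 and 6.62. No treated array reached a control array of its line. ZC3H12A fell by 0.54 in SKBrM3 (1.46-fold, limma adjusted p = 0.0381), a call lost in 5 of the 8 fits without 1 array: those without either 231BrM control, either SKBrM3 control or the second SKBrM3 doxycycline array (adjusted p from 0.0860 to 0.193). In 231BrM its change was -0.27 (standard error 0.112, limma adjusted p = 0.493). A single probe set measures it.

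TNFAIP2, which TNF induces in endothelial and myeloid cells, measured 7.52 and 7.73 in treated 231BrM cells, against 7.88 and 7.65 in controls, so the groups overlapped. In the line labelled SKBrM3 it had 7.51 and 7.58 with doxycycline, against 7.85 and 8.07, without overlap. The changes were -0.14 in 231BrM (limma adjusted p = 0.685) and -0.41 in SKBrM3 (limma adjusted p = 0.0988, standard error 0.117). Neither passed, and its 5 probe sets ran from -0.14 to 0.06 in 231BrM and from -0.41 to -0.13 in SKBrM3. Without the first 231BrM doxycycline array the probe set used gave -0.03 in 231BrM, and the 5 ran from -0.03 to 0.30, with 4 of them above 0. In the average, the change of TNFAIP2 ran from -0.33 to -0.22 over the fits that left out 1 array.

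ICAM1, the adhesion molecule, measured 6.16 and 5.91 in treated 231BrM cells, against 7.03 and 6.71 in controls. In treated cells labelled SKBrM3 it measured 5.12 and 5.32, against 5.72 and 5.68 in controls. The treated arrays lie clearly below the controls in both lines, and all arrays of 231BrM lie above all arrays of SKBrM3. The change in 231BrM was -0.84 (1.79-fold, standard error 0.130, limma adjusted p = 0.0787), which ranked 24 of 13002 genes by p but missed the threshold. It ran from -0.99 to -0.68 over the fits that left out 1 array. With the mean of the ICAM1 probe sets it passed (-0.91, limma adjusted p = 0.0227). In SKBrM3 the change was -0.48 (limma adjusted p = 0.0873).

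The 3 ICAM1 probe sets gave -0.998 to -0.837 in 231BrM and -0.482 to -0.244 in SKBrM3, where 2 of them lay near or under the filter level. Averaged over both lines ICAM1 fell by 0.66 (1.58-fold, limma adjusted p = 0.00801), the change farthest from 0 among the members in that comparison. The plot of every probe set puts these values beside those of the other members.

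**Figure D2:**
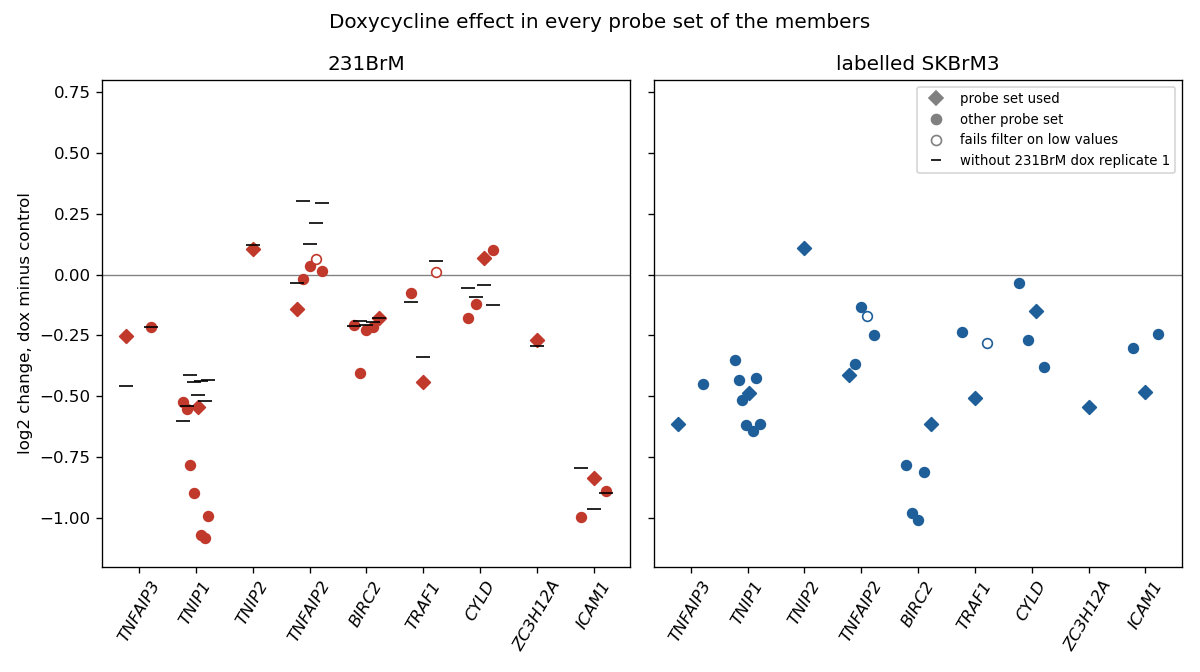
Log2 change, doxycycline minus control (vertical axis), in each of the 32 probe sets of the 9 measured members; diamonds are the probe sets used, circles the others, open circles those that fail the filter, and black dashes the 231BrM values without the first doxycycline array. All 8 TNIP1 and all 3 ICAM1 probe sets lie below 0 in both lines, and in 231BrM 5 TNIP1 values lie well below their dashes.

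Counted together, 0 of the 9 members were called in 231BrM, where 0.162% of all genes were called lower and 0% higher, and at an unadjusted p under 0.05 it was 5 of 9 (TNIP1, BIRC2, TRAF1, ZC3H12A and ICAM1), against 3.74% of all genes lower. In SKBrM3 3 of 9 (33.3%) were called lower, against 2.28% of all genes lower and 1.15% higher. In the average, 6 of 9 were called lower, against 2.07% of all genes lower and 0.969% higher. The doxycycline arrays lay below the controls without overlap in 5 of 9 members in 231BrM, against 12.1% of all genes, and in 8 of 9 in SKBrM3, all but TNIP2, against 27.2%. The median change of the 9 members was -0.25 in 231BrM, -0.49 in SKBrM3 and -0.41 in the average, where the medians of all genes tested were 0.05, 0.01 and 0.03. The members were chosen with earlier results of these data known, so counts and medians set against all genes are no independent evidence.

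In the average TNFAIP3 changed by -0.43 (limma adjusted p = 0.0420), BIRC2 by -0.39 (limma adjusted p = 0.00681) and ZC3H12A by -0.41 (limma adjusted p = 0.0357). Calls in the average depended on single arrays. TNFAIP3 and TRAF1 lost their call in 6 of the 8 fits that left out 1 array, all but those without a 231BrM doxycycline array (adjusted p from 0.137 to 0.166 and from 0.0526 to 0.173). ZC3H12A lost it in 5 (0.0913 to 0.156), keeping it without either 231BrM doxycycline array and without the first SKBrM3 doxycycline array. TNIP1 lost it in 4 (without either 231BrM control, the second SKBrM3 control or the second SKBrM3 doxycycline array, 0.0502 to 0.0896), ICAM1 in 3 (without either SKBrM3 control or the first SKBrM3 doxycycline array, 0.0519 to 0.0559) and BIRC2 in 1 (without the first 231BrM control, 0.0536). The signs of these 6 genes held in all 8 fits. With every probe set tested on its own, TRAF1 (adjusted p = 0.0864) and ZC3H12A (adjusted p = 0.0764) lost their call in the average, as did the TNFAIP3 probe set used (adjusted p = 0.0862), while the other TNFAIP3 probe set passed (adjusted p = 0.0430), against 1.3% of all probe sets lower. Without the first 231BrM doxycycline array the same 6 members were called in the average, against 3.81% of all genes lower. Without either 231BrM doxycycline array 7 of 9 were called in SKBrM3, against 6.14%. The SKBrM3 arrays fitted alone also called 7 of 9, against 4.78% of all genes lower. In these SKBrM3 fits the members added to TNFAIP3, BIRC2 and ZC3H12A were TNIP1, TNFAIP2, TRAF1 and ICAM1.

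**Figure D3:**
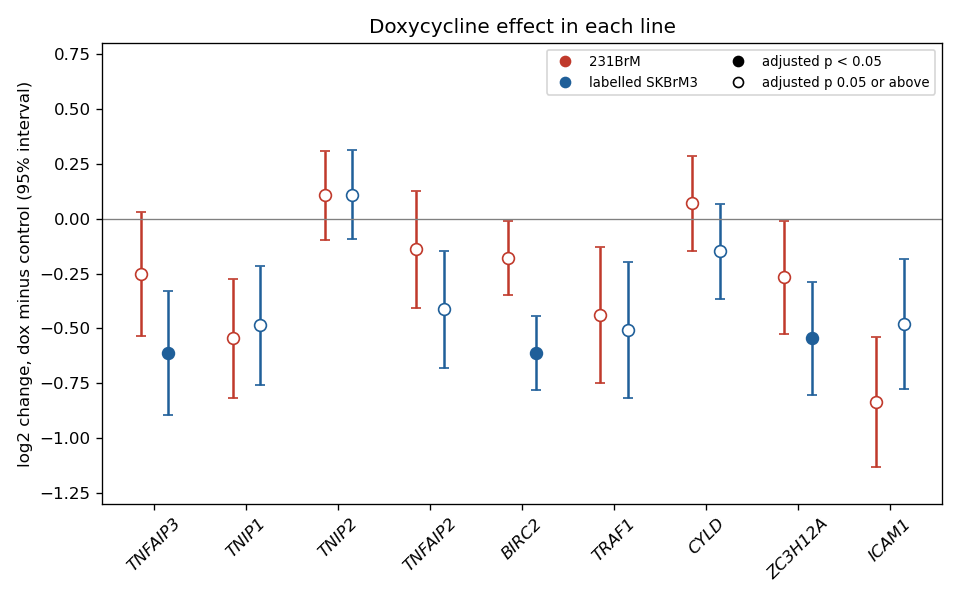
Log2 change, doxycycline minus control (vertical axis), of the 9 measured members in 231BrM and in the arrays labelled SKBrM3; points are limma estimates from 2 arrays a group and bars are 95% intervals. ICAM1 in 231BrM, at -0.84, lies farthest from 0, and the intervals of TNIP2 and CYLD cross 0 in both lines.

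Whether the 2 lines differed in their answer to doxycycline was asked of each member. No member passed, against a background of 0.0231% of genes higher and 0% lower, and 1 of 9, BIRC2, had an unadjusted p under 0.05, against 6.86% of all genes higher. The difference, 231BrM minus SKBrM3, was 0.36 for TNFAIP3 (limma adjusted p = 0.494), 0.28 for ZC3H12A (0.556), 0.27 for TNFAIP2 (0.571) and -0.36 for ICAM1 (0.515). TNFAIP3, BIRC2 and ZC3H12A were thus called in SKBrM3 and not in 231BrM, yet for none did the difference between the lines pass with all arrays. For TNFAIP3 the difference ran from 0.15 without the first 231BrM doxycycline array to 0.57 without the second.

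Without doxycycline the lines differed in 3 members. ICAM1 was 2.25-fold higher in 231BrM controls than in SKBrM3 controls (1.17, limma adjusted p = 0.000183), and all 3 of its probe sets lay between 1.17 and 1.72 higher. CYLD was 1.95-fold higher (0.96, limma adjusted p = 0.000100), with all 4 of its probe sets higher, by 0.14 to 0.96, and BIRC2 was higher by 0.44 (limma adjusted p = 0.00173). These 3 of 9 stand against 19.8% of all genes called higher and 19.9% called lower, so the count says little about the members as a group. TNFAIP3 was lower by 0.32 in 231BrM controls (limma adjusted p = 0.0692), and the other 5 members had adjusted p from 0.150 to 0.544. With array weights TNFAIP3 passed here, when 3172 of all 13002 genes were called higher and 3464 lower. Whether it passed turned on the estimate of the spread. Leaving out a 231BrM doxycycline array takes nothing from either control group, so the difference of TNFAIP3 stays as it is.

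The genes of the TNF receptor complex and its kinases carry the signal ahead of NF-kB. Of 18 such genes, 16 were tested and none was called in either line, where 0.162% of all genes were called lower in 231BrM and 2.28% in SKBrM3, so such a count says little about the list. Their medians were 0.03 in 231BrM and 0.10 in SKBrM3, against 0.05 and 0.01 over all genes, and in SKBrM3 the treated arrays lay above the controls without overlap in 9 of 16 and below them in 3, against 32.3% and 27.2% of all genes. In the average 1 was called lower, CFLAR, which encodes the caspase-8 inhibitor c-FLIP (-0.32, limma adjusted p = 0.0493), against 2.07% of all genes. Of 11 A20 partners and other ubiquitin regulators, 10 were tested, with medians of -0.03 and -0.18. RNF11, a RING protein of the A20 complex, was the only one called in SKBrM3 (-0.39, limma adjusted p = 0.0387), against the 2.28% of all genes called lower there, and none was called in 231BrM.

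Other genes that TNF is known to switch on through NF-kB include those of chemokines, cytokines and NF-kB inhibitors. Of 30 such genes, 28 were tested. In 231BrM 4 were lower (CXCL8, CXCL1, CXCL2 and IL1B) and in SKBrM3 12 were, against 0.162% and 2.28% of all genes, with medians of -0.28 and -0.39 over all 28 tested, against 0.05 and 0.01 over all genes. The smallest p-values in SKBrM3 were those of CXCL2, CXCL8, CXCL1, IL1B and BCL2A1, the gene of an anti-apoptotic BCL2 relative (-1.29, limma adjusted p = 0.000529). NFKBIA, the gene of the NF-kB inhibitor that is resynthesised after each activation, fell by 0.82 in SKBrM3 (limma adjusted p = 0.0154) and changed by -0.55 in 231BrM (limma adjusted p = 0.247). The chemokine gene CXCL2 changed more than any member in either line: it fell by 2.34 in SKBrM3 and by 1.12 in 231BrM. The effect in 231BrM minus that in SKBrM3 was 1.22 for CXCL2, 1.27 for CXCL8 and 1.48 for CXCL1 (limma adjusted p = 0.0114 each). That list was compiled with earlier results of these arrays known, so its direction is no independent evidence.

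Genes listed as paralogs, by family or name, were counted in the same way. Of 15, 13 were tested, with medians of 0.08 and 0.01, and 1 was called lower in SKBrM3, against 2.28% of all genes. None was called higher, against 1.15%. The gene called, ZC3H12C, which belongs to the same RNase family as ZC3H12A, fell by 0.89 in SKBrM3 (limma adjusted p = 0.00166) and changed by -0.45 in 231BrM (limma adjusted p = 0.149). XIAP, the IAP relative of BIRC2, changed by -0.07 and -0.12, and ICAM3 by 0.38 and -0.06, none of which passed. The plot of gene groups sets these beside the members.

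**Figure D4:**
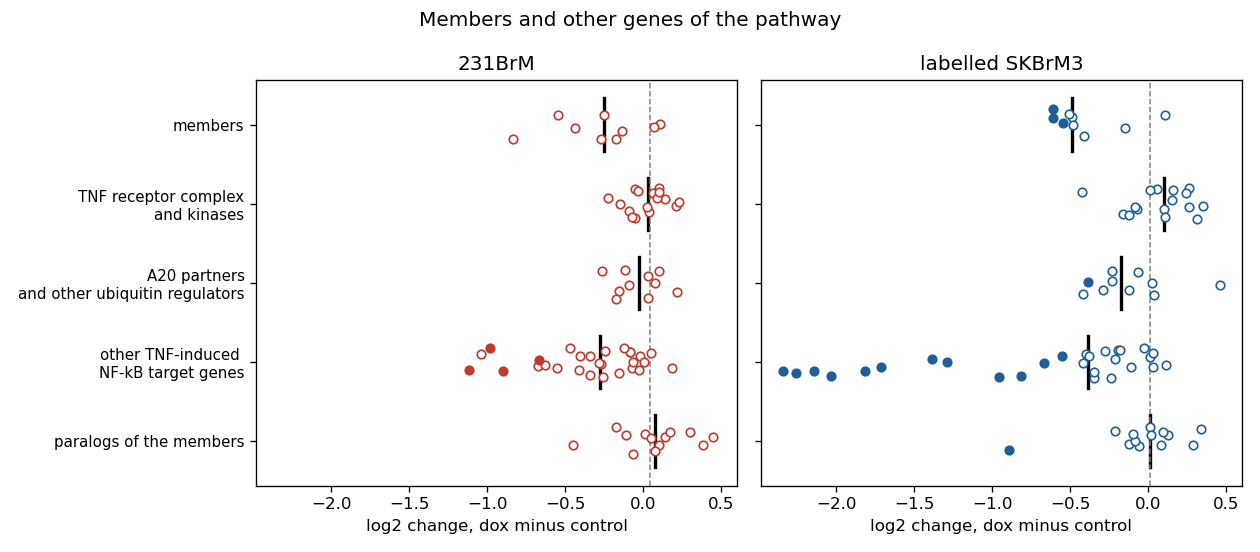
Log2 change, doxycycline minus control (horizontal axis), of each tested gene of the members and of 4 related gene groups in both lines; each point is a gene, filled where its adjusted p is under 0.05, the black bar is the median of the group and the dashed line that of all genes. The medians of the members, -0.25 and -0.49, and of the other TNF-induced genes, -0.28 and -0.39, lie left of the dashed line, and those of the receptor complex, 0.03 and 0.10, near it.

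Genes with the pattern most like TNFAIP3 over the 8 arrays were sought among all genes tested, by the root mean square difference of the log2 values after each gene's mean was subtracted. The nearest was MREG at 0.0653, followed by CDCA4 (0.0716), SIRT1 (0.0728), SMIM13 (0.0739) and HK2 (0.0758), where the median over all genes was 0.315. For ICAM1 they were ETV1 (0.151), CRYBG1 (0.152), PTPRE (0.172), PIK3R3 (0.180) and SNX16 (0.181), with a median of 0.639.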

How the data were processed

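RNA was measured on 8 arrays. The deposited values are log2, 1 per probe set and array, made by the authors with RMA, according to the submitters' processing notes. The RMA version, chip definition file and genome build are not stated there. RMA includes quantile normalization, so a change in total RNA per cell cannot be seen. No scanner signal or detection call was used here, so the background under low values is unmeasured. Probe sets were named through GEO's platform annotation, with symbols updated by gene ID (RefSeq, GRCh38.p14, used also for promoter sequences). The table holds 49386 probe sets: 93 are controls, 45253 name 1 gene, 1327 several and 2713 none.

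Each gene was represented by its probe set with the highest mean and tested if 2 or more arrays exceeded 4.41, the table's 40th percentile. The fit was limma 3.58.1 (R 4.3.3, lmFit and eBayes) on 4 group means over all 8 arrays, two-sided, with 4 residual and 4.60 prior degrees of freedom and Benjamini-Hochberg adjustment over 13002 genes. A gene was called at an adjusted p under 0.05. With 2 arrays a group precision is limited: for the effect within 1 line the median standard error was 0.0968. On simulated data for 13002 genes, with the same spread in all 4 groups, changes of 0.5 were recovered for 73% of changed genes in 231BrM and 69% in SKBrM3. Changes of 1 were recovered for 99% and 98%. The real 231BrM doxycycline arrays differed more from each other (standard deviation of the differences 0.255, against 0.124 to 0.138 in the other groups). These shares therefore do not hold for the real effect in 231BrM, where CXCL3 was not called at -1.04 (limma adjusted p = 0.117). The shares also depend on how many genes the simulation changed, alike in both lines, so for SKBrM3 they are only a guide. Alternatives were the mean of a gene's probe sets, each probe set on its own, no filter, subtracted array medians, array weights, 1 line alone, the replicate number as a block, and leaving out each array.

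All members are named with all their probe sets, and of each related list up to 5 called genes with the smallest p. NFKBIA, XIAP, ICAM3 and the markers were named besides, after their values were seen. The members and lists were chosen with earlier results of these data known.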

Additional observations from a re-analysis of the deposited data

How the results depend on the processing

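Without a filter on low values and with array medians subtracted, the numbers of members called in the 5 comparisons stayed within 1.5 times those reported, although TNFAIP3 lost its call in the average with medians subtracted (-0.43, limma adjusted p = 0.0553). In SKBrM3, 7 members were called with array weights and 7 with that line fitted alone, against 3. Of all 13002 genes, 806 were called lower there with array weights and 621 with that line alone, against 296. With every probe set tested on its own, 1 member, BIRC2, was called in SKBrM3. That fit left 4 in the average, without TRAF1 and ZC3H12A. Array weights took TRAF1 out of the average (limma adjusted p = 0.0501) and called 4 members between the control groups, TNFAIP3 being added to the 3 reported. Between these groups they called 3172 of all genes higher and 3464 lower, against 2580 and 2587. In 231BrM the mean of all probe sets called 1 member, ICAM1, against 0, and turned the change of CYLD to -0.031. It called 23 of 11612 genes lower there. Leaving out 1 array changed which members were called in every comparison. The number of all genes called changed too, so such counts say little about the members. A group left with 1 array was assumed to vary like the others. Signs that turned in these fits belonged to small changes: CYLD ran from -0.041 to 0.18 in 231BrM and from -0.095 to 0.017 in the average, and the differences between lines from -0.18 to 0.065 for TNIP1, -0.093 to 0.086 for TNIP2 and -0.10 to 0.24 for TRAF1. The cause of these shifts was not tested.

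With the replicate number as a block, 0 members were called in 231BrM, 3 in SKBrM3 and 5 in the average (TRAF1 lost, limma adjusted p = 0.0557). None was called for the difference and 3 between the controls. Of all 13002 genes, 16 were called lower in 231BrM, 258 in SKBrM3 and 230 in the average. Whether the numbers pair the samples is not settled. Deviations of same-numbered doxycycline and control arrays correlated at 0.24 in 231BrM and -0.01 in SKBrM3. Between same-numbered arrays of different lines the correlations ran from -0.11 to 0.06. With 2 arrays a group, changes of about 0.5 can be missed, and larger ones in 231BrM. Values near 4.41 can understate a change.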
